A study of Mus musculus with 6 samples.

Results

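Draining lymph node (LN) CD8 T cells of mice in which CD8-Cre deletes a chain of the interferon-γ (IFNγ) receptor were set against control LN CD8 T cells, 1 droplet library against 1. A cell was taken where its barcode held 200 to 6000 genes, at most 3% mitochondrial UMIs (unique molecular identifiers, each standing for 1 captured transcript) and 1 UMI or more of all of *Cd8a*, *Cd8b1* and *Cd2*. That left 6754 of 11298 barcodes of the CD8-IFNγRKO library and 6658 of 12979 of the control library, in all 13412 of the 29156 cells that the same rule took from the LN and tumor libraries of the series. Control mice carried CD8-Cre and Rosa26Tomato, and CD8-IFNγRKO mice carried both of these and IFNgR1flox/flox. CD8-Cre is driven by the CD8α promoter and acts in mature CD8 T cells, so cells of other lineages in the same mice kept the receptor. All mice bore B16-OVA, a mouse melanoma line that expresses ovalbumin, and organs were taken on day 12. Each library pooled 3 mice, and the counts used here hold no tag that ties a cell to a mouse. Cells were sorted for CD45, CD3, CD8 and Tomato in both genotypes.

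IFNγ binds a receptor of IFNγR1 and IFNγR2 chains, whose kinases JAK1 and JAK2 act through transcription factors that bind GAS and ISRE elements in target promoters. IRF1 and IRF9 take part in binding ISRE elements. Known targets are the guanylate-binding proteins (GBPs), the immunity-related GTPases (IRGs) and the immunoproteasome and peptide transporter of the major histocompatibility complex (MHC) class I pathway, while type I interferon acts through its own receptor on an overlapping set of antiviral genes.

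The promoters of *Gbp2*, *Gbp5*, *Tgtp1* and *Igtp*, 4 GTPase genes that were lower in CD8-IFNγRKO cells, are shown because each holds letters of an interferon-responsive element near its start. Each line gives the 250 bases before the gene's start on its own strand, from RefSeq (GRCm38.p6, the build of the files), with matches to GAS (TTCNNNGAA, its own reverse complement) or ISRE (GAAANNGAAA on either strand) in capitals. They lie at chr3:142620413-142620662, chr3:142496684-142496933, chr11:48992247-48992496 and chr11:58199306-58199555.
Gbp2: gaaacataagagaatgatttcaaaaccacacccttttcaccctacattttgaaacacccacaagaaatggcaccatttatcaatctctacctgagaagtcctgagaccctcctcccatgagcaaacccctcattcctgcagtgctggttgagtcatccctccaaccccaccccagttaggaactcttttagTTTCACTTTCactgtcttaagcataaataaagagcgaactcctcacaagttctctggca
Gbp5: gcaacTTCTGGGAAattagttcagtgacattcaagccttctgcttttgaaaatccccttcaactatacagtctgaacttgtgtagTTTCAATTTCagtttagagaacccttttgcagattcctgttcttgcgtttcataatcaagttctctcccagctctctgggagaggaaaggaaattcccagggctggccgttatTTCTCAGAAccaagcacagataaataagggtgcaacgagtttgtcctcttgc
Tgtp1: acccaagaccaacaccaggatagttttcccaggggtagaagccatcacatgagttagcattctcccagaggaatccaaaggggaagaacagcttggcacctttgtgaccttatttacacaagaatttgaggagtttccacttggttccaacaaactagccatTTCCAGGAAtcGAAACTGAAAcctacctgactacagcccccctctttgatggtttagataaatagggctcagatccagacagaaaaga
Igtp: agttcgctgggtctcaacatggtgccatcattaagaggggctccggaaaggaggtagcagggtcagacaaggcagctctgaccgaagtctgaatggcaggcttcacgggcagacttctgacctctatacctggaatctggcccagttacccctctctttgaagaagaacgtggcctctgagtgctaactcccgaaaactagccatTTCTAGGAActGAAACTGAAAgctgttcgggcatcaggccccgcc

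In *Gbp2* an ISRE match spanned bases 59 to 50 before the start. In *Gbp5* GAS matches began 245 and 52 bases before the start and an ISRE match 165 bases before it. *Tgtp1* and *Igtp*, both IRGs on chromosome 11, shared one arrangement, a GAS match followed after 2 bases by an ISRE match, starting 88 bases before the start in *Tgtp1* and 45 in *Igtp*. *Tgtp2*, an IRG of the same chromosome whose ratio lay within the limit explained further on, held the same arrangement, starting 81 bases before its start. Of the tested GBPs, 4 of 8 had a promoter in the table and 4 of these held an ISRE match, 2 a GAS match. Of the 5 tested IRGs, 4 held an ISRE match and 3 a GAS match. Of the 5891 tested genes with a promoter in the table, 3.45% held an ISRE match and 6.99% a GAS match, and over all 32851 promoters in the table the shares were 2.98% and 7.02%. Among antiviral interferon-stimulated genes, described further on, 18 of the 36 with a promoter held an ISRE match and 5 a GAS match. A match is a description of the letters and not evidence of binding. *Ly6a* and *Gbp6* were not in the table.

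The CD8-IFNγRKO and control LN libraries held 28960267 and 30029269 UMIs in the cells taken, with a median of 3866 and 4053 per cell. T cell identity was checked first. *Cd3e*, a subunit of the T cell receptor complex, stood at 1119 and 1059 CPM (UMIs of a gene per 1000000 UMIs of the cells taken), and *Ccr7*, a homing receptor of naive cells, at 639.8 and 584 CPM. The summed level of 10 B cell markers was 254 and 244 CPM, of which *Ighm* made up 227 and 223 CPM, with 1 and 0 UMIs of *Pax5*. The sum of 12 macrophage or dendritic markers was 78.5 and 81.1 CPM, of which *Cst3* made up 71.9 and 77.2 CPM, with *Adgre1* and *Siglech* at 0 in both. The sum of 4 NK or γδ markers was 2.11 and 2.46 CPM, and that of 3 melanoma markers 0.483 and 0.200 CPM. Apart from these stood *Cd4*, the coreceptor of helper T cells, at 18.4 against 9.92 CPM and with a UMI in 7.31% against 4.27% of cells. The sum of 4 CD4 T cell markers, *Cd4* among them, was 22.3 and 14.9 CPM, so that the others together were not higher in CD8-IFNγRKO cells. Without cells that held a UMI of *Cd4* or *Cd79a*, the counts of lower and higher genes given further on were 70 and 74. *Cd79a*, which marks B cells, had a UMI in 0.267% and 0.135% of cells. Of the barcodes within the gene and mitochondrial limits, 60.2% and 51.8% passed the filter on the 3 markers. *Cd8b1* was found in 97.0% and 89.8% of them, *Cd8a* in 86.8% and 78.6% and *Cd2* in 69.7% and 63.5%. Their median depth was 3638 and 3531 UMIs. 51 barcodes occurred in both LN libraries. Xist UMIs without a Y-linked UMI were found in 2 and 1 cells, against 3269 and 2985 cells with Y-linked UMIs alone.

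With 1 library on each side there is no spread between samples and no test. Levels are given with exact Poisson 95% intervals and log2 ratios of CD8-IFNγRKO over control (1 CPM added to each) with conditional binomial 95% intervals. Both cover counting error only. Differences between mice, sorts and library preparations cannot be told apart from the genotype. Nor can fewer cells with a transcript be told apart from less transcript per cell in pooled levels. A gene was tested where its mean over both libraries reached 10 CPM, T cell receptor segments left out, and was counted as lower or higher where its log2 ratio was -0.32 or below, or 0.32 or above, which is called the limit here and stands for a level 25% above the other. Of 7320 tested genes, 68 were lower (0.929%) and 72 higher (0.984%). With ratios centred on their median these were 83 and 45, and without the marker filter 64 and 59. The median log2 ratio was 0.03, and the 5th to 95th percentiles ran from -0.15 to 0.20.

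**Figure D1:**
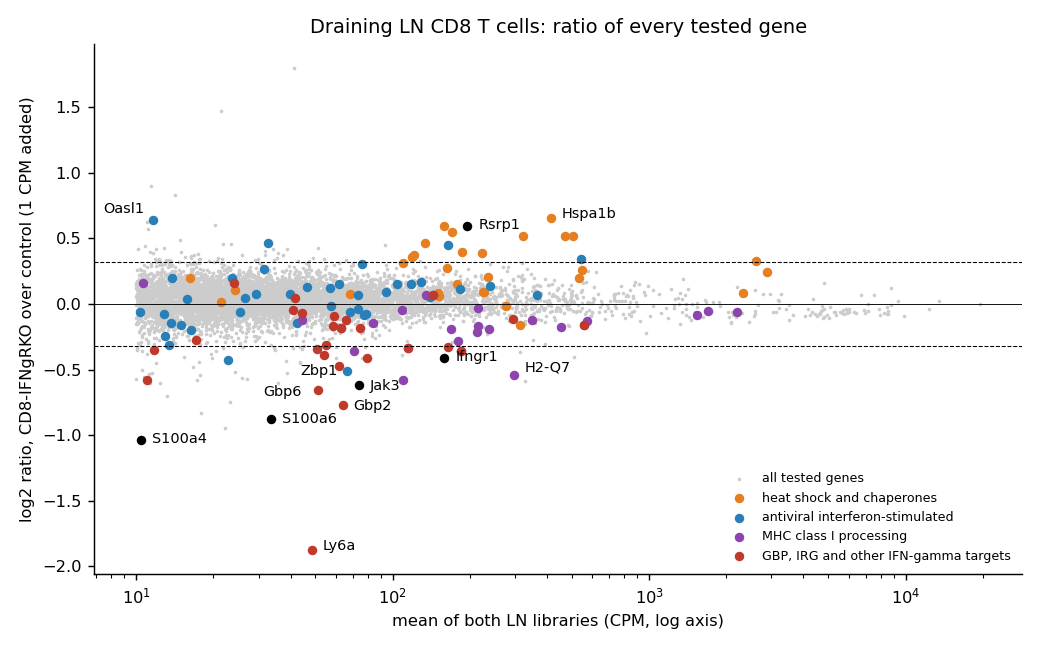
Log2 ratio of CD8-IFNγRKO over control LN (y axis, 1 CPM added) against the mean level of both libraries (x axis, CPM, log axis), 1 point a gene. Dashed lines mark the limit of 0.32 in each direction. *Ly6a* lies at -1.88, apart from all other tested genes below 0, with 6 GBP and 2 IRG genes between the lower line and -0.77, while 12 heat shock genes lie above the upper line.

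*Ifngr1*, the targeted gene, on chromosome 10 from 19591949 to 19610229, stood at 137 CPM (132 to 141) in the CD8-IFNγRKO library and 182 CPM (177 to 187) in the control library, a log2 ratio of -0.41 (-0.47 to -0.35). The transcript was lower in the LN but not absent. In the tumor libraries of the same genotypes it was 237 against 718 CPM, a log2 ratio of -1.59. After each cell was thinned to 1600 UMIs, which left out 41 and 237 shallower cells, 18.7% (17.7 to 19.6) of CD8-IFNγRKO and 23.2% (22.2 to 24.3) of control cells held an *Ifngr1* UMI, and without thinning 38.9% and 46.9%. These are 5' libraries, and counts per gene do not show whether a transcript holds the floxed exon.

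The ratio of *Ifngr1* in cell classes had overlapping intervals. Cells with 0 UMIs of *Ccl5*, a chemokine of memory and effector cells, after thinning gave -0.37 (-0.43 to -0.30), and cells with at least 2 gave -0.47 (-0.67 to -0.27). The level itself was higher in the latter, 251 against 347 CPM, than in the former, 129 against 167 CPM. B-like barcodes, which held UMIs of *Cd79a*, *Cd79b* and *Ms4a1* and none of *Cd8a* or *Cd8b1* and in which CD8-Cre should not act, numbered 19 and 17 and gave 5 and 7 *Ifngr1* UMIs, too few for a comparison. Of the 20 genes next to *Ifngr1*, 10 on each side, 6 were tested and 1 was past the limit. Among all tested genes 0.929% were lower and 0.984% higher. *Map3k5*, a stress-activated kinase 324 kb beyond *Ifngr1*, was lower at 9.46 against 12.6 CPM, a log2 ratio of -0.38 (-0.59 to -0.17). *Tnfaip3*, an inhibitor of NF-κB 576.5 kb before it, stood at 348 and 347 CPM.

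The other receptor chain and the kinases were not lower. *Ifngr2* stood at 36.1 against 30.1 CPM, a log2 ratio of 0.26. *Jak1* stood at 478 against 452 CPM (0.08) and *Jak2* at 40.4 against 33.8 CPM (0.25). *Irf1*, a transcription factor that IFNγ induces early, lay within the limit at 223 against 239 CPM (-0.10), and *Irf9* at 51.9 against 52.6 CPM (-0.02). The feedback inhibitors *Socs1* (-0.15) and *Socs3* (-0.17) and the phosphatases *Ptpn2* (0.10), *Ptpn6* (0.08) and *Ptpn11* (-0.01) did so too, as did *Pias1* (0.12). The ligand *Ifng* stood at 10.3 against 12.0 CPM, a log2 ratio of -0.20 whose interval reached 0.01. Of the 13 tested genes of the receptor pathway list, *Ifngr1* was thus the 1 past the limit, beside 0.929% of all tested genes lower.

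*Ly6a*, which encodes the surface protein Sca-1 and lies on chromosome 15, was the lowest tested gene. The CD8-IFNγRKO library held 585 UMIs and the control library 2307, or 20.2 CPM (18.6 to 21.9) against 76.8 CPM (73.7 to 80.0), a log2 ratio of -1.88 (-2.0 to -1.75). The share of thinned cells with a *Ly6a* UMI was 2.58% (2.21 to 2.98) against 8.80% (8.12 to 9.52), and the share with at least 2 was 0.253% against 1.98%. Without thinning, 6.0% and 18.6% of cells held one. For comparison, *Cd79a*, which these cells should lack, had a UMI in the 0.267% and 0.135% given above. Other genes of the family differed. *Ly6k* was lower at 9.81 against 16.6 CPM (-0.70), while *Ly6e* stood at 895 against 1045 CPM (-0.22) and *Ly6c2* at 732 against 739.8 CPM (-0.02), both within the limit. Of 4 tested Ly6 genes, 2 were thus lower and none higher, beside 0.929% of all tested genes lower.

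The GBPs, GTPases that coat pathogen vacuoles, were lower as a group. Of 8 tested, 6 were lower past the limit and none higher, with 8 of 8 below 0 and a median of -0.38, beside 0.929% of all tested genes lower, 38.6% below 0 and a median of 0.03. *Gbp2* stood at 47.1 CPM (44.6 to 49.7) against 80.9 CPM (77.7 to 84.1), a log2 ratio of -0.77 (-0.86 to -0.67). *Gbp6* followed at 39.4 against 62.7 CPM (-0.66), *Gbp5* at 8.63 against 13.4 CPM (-0.58) and *Gbp4* at 68.1 against 90.8 CPM (-0.41). *Gbp3* (-0.35) and *Gbp8* (-0.34) were close to the limit, and *Gbp7* (-0.31) and *Gbp9* (-0.18) within it. *Gbp10* was under the minimum level, at 117 against 278 UMIs and a log2 ratio of -1.03 (-1.29 to -0.76), and *Gbp2b* gave 0 and 1 UMIs. Reads of *Gbp6* and *Gbp10*, near-identical copies, may have been split between them. The plot of levels shows the Poisson intervals of the 8 tested genes, which cover counting error only and are narrow at this depth.

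The tested IRGs gave a median closer to 0 than the tested GBPs. Of 5 tested, 2 were lower and 5 of 5 below 0, with a median of -0.17, beside 0.929% of all tested genes lower, 38.6% below 0 and a median of 0.03. *Tgtp1* stood at 51.7 against 72.2 CPM (-0.48, -0.57 to -0.38) and *Igtp* at 46.8 against 61.5 CPM (-0.39, -0.49 to -0.29). *Tgtp2*, a near-identical copy of *Tgtp1*, was within the limit at 55.2 against 62.3 CPM (-0.17), as were *Irgm1* (-0.12) and *Ifi47* (-0.12). *Irgm2* gave 208 against 288 UMIs and *Iigp1* 65 against 202 UMIs, both under the minimum level. In cells with 0 UMIs of *Ccl5* after thinning, *Iigp1* gave a log2 ratio of -1.24 (-1.56 to -0.92), below *Gbp2* at -0.79. *Irgm2* gave -0.41 (-0.66 to -0.17) in these cells.

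Of 13 other tested IFNγ targets, 4 were lower, none higher and 10 below 0, with a median of -0.16, again beside 0.929% lower and 38.6% below 0 among all tested genes. Besides *Ly6a* these were *Psmb9*, an immunoproteasome subunit, at 163 against 209 CPM (-0.36), *Tap1*, a subunit of the peptide transporter, at 101 against 128 CPM (-0.33), and *Samhd1*, a dNTP hydrolase that restricts viruses, at 145 against 182 CPM (-0.33). *Cd274*, which encodes PD-L1, stood at 15.4 against 18.8 CPM (-0.28), and *Nlrc5*, the transactivator of MHC class I genes, at 59.0 against 67.2 CPM (-0.19). *Psmb8* (-0.16), *Dtx3l* (-0.09), *Parp9* (-0.07), *Parp14* (-0.04), *Xaf1* (0.05), *Bst2* (0.07) and *Znfx1* (0.16) lay within the limit. The other targets of this list were under the minimum level, so only their UMIs are given. *Irf8* gave 37 against 127, *Cxcl10* 24 against 81, *Serpina3g* 24 against 54 and *Fgl2* 8 against 21. *Casp1* gave 45 against 60 UMIs and *Casp4* 16 against 17. *Ciita* (5 and 4), *Serpina3f* (1 and 6), *Cxcl9* (0 and 1) and *Batf2* (0 and 0) were near or at 0.

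**Figure D2:**
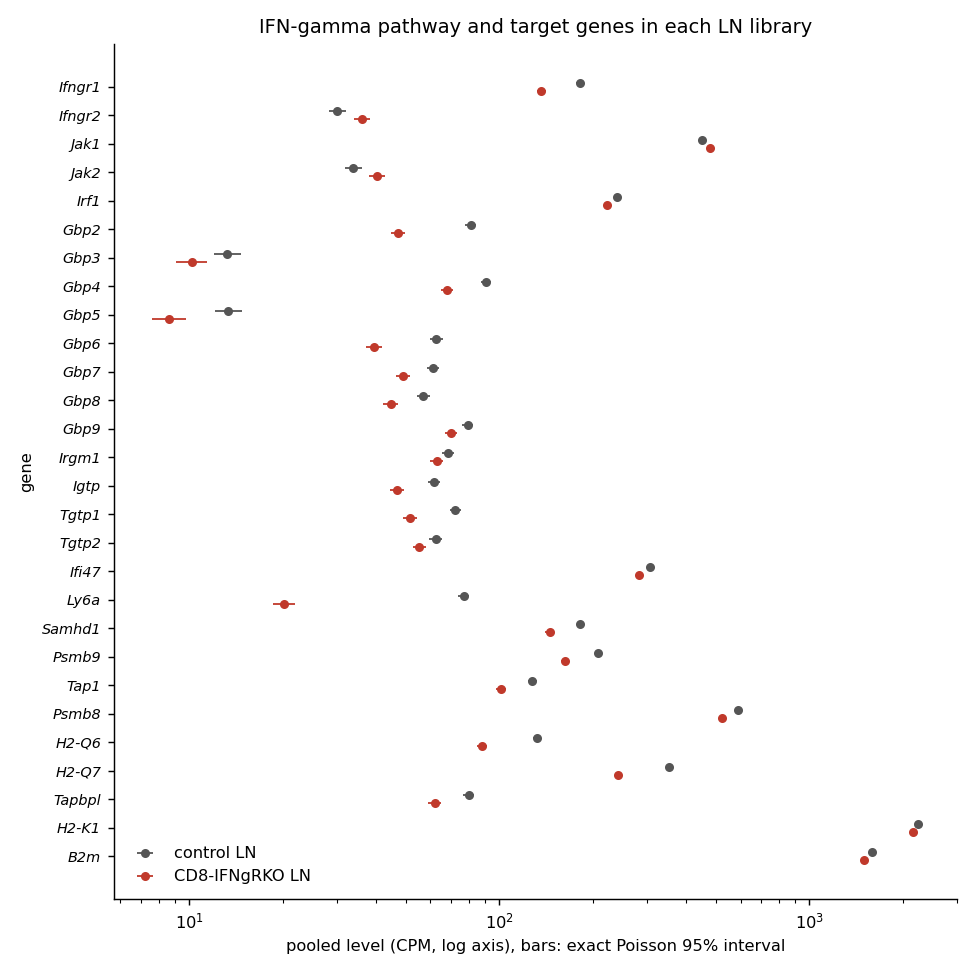
Pooled level (x axis, CPM, log axis) of receptor pathway, GBP, IRG and class I genes (y axis) in the control LN library (grey) and the CD8-IFNγRKO LN library (red). Bars are exact Poisson 95% intervals, counting error only. The red point lies left of the grey one for all genes shown except *Ifngr2*, *Jak1* and *Jak2*, and the gap is widest for *Ly6a*.

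The MHC class I pathway, which cuts, transports and loads peptides, was below 0 in 22 of 24 tested members, with a median of -0.16. Among all tested genes 38.6% were below 0. Of the 24 members 5 were lower past the limit and none higher, again beside 0.929% of all tested genes lower. *H2-Q7*, a nonclassical class I molecule, stood at 241 CPM (236 to 247) against 352 CPM (346 to 359), a log2 ratio of -0.54 (-0.59 to -0.50), and its neighbour *H2-Q6* at 88.1 against 132 CPM (-0.58). These are near-identical copies on chromosome 17, so that their separate values are uncertain. *Tapbpl*, a peptide editor, was lower at 61.9 against 79.6 CPM (-0.36), with *Psmb9* and *Tap1* as above. In cells thinned to 1600 UMIs these 3 were within the limit, which left 2 lower class I genes, beside 107 of 7329 tested genes lower. The immunoproteasome subunit *Psmb10* stood at 162 against 197 CPM (-0.28), the loading factor *Tapbp* at 203 against 227 CPM (-0.16) and the proteasome activator *Psme1* at 549 against 600.3 CPM (-0.13). The classical heavy chains differed least, *H2-K1* at 2153 against 2241 CPM (-0.06) and *H2-D1* at 1665 against 1726 CPM (-0.05), as did *B2m*, the light chain, at 1498 against 1589 CPM (-0.08).

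Over all cells taken, antiviral interferon-stimulated genes did not share this direction. Of 41 tested, 2 were lower and 4 higher, beside 0.929% of all tested genes lower and 0.984% higher. Below 0 were 16 of the 41, beside 38.6% of all tested genes, and the median was 0.07. The lower ones were *Zbp1*, a sensor of Z-form nucleic acids, at 54.5 against 78.2 CPM (-0.51, -0.61 to -0.42), and *Isg20*, an exonuclease, at 19.4 against 26.4 CPM (-0.43). The higher ones were *Oasl1* at 14.4 against 8.92 CPM (0.64, 0.43 to 0.84), *Ifit1*, which binds foreign RNA, at 38.1 against 27.3 CPM (0.46), the DNA sensor family member *Ifi208* at 189 against 138 CPM (0.45) and *Ifi27l2a* at 606 against 477 CPM (0.34). *Isg15* (-0.08), *Irf7* (0.09) and *Ifit3* (0.19) were within the limit. *Apobec3*, a cytidine deaminase that restricts retroviruses, was among the 15 lowest genes of at least 50 CPM at 94.0 against 123 CPM (-0.39). None of the 8 tested IRF genes was past the limit, with a median of 0.06.

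**Figure D3:**
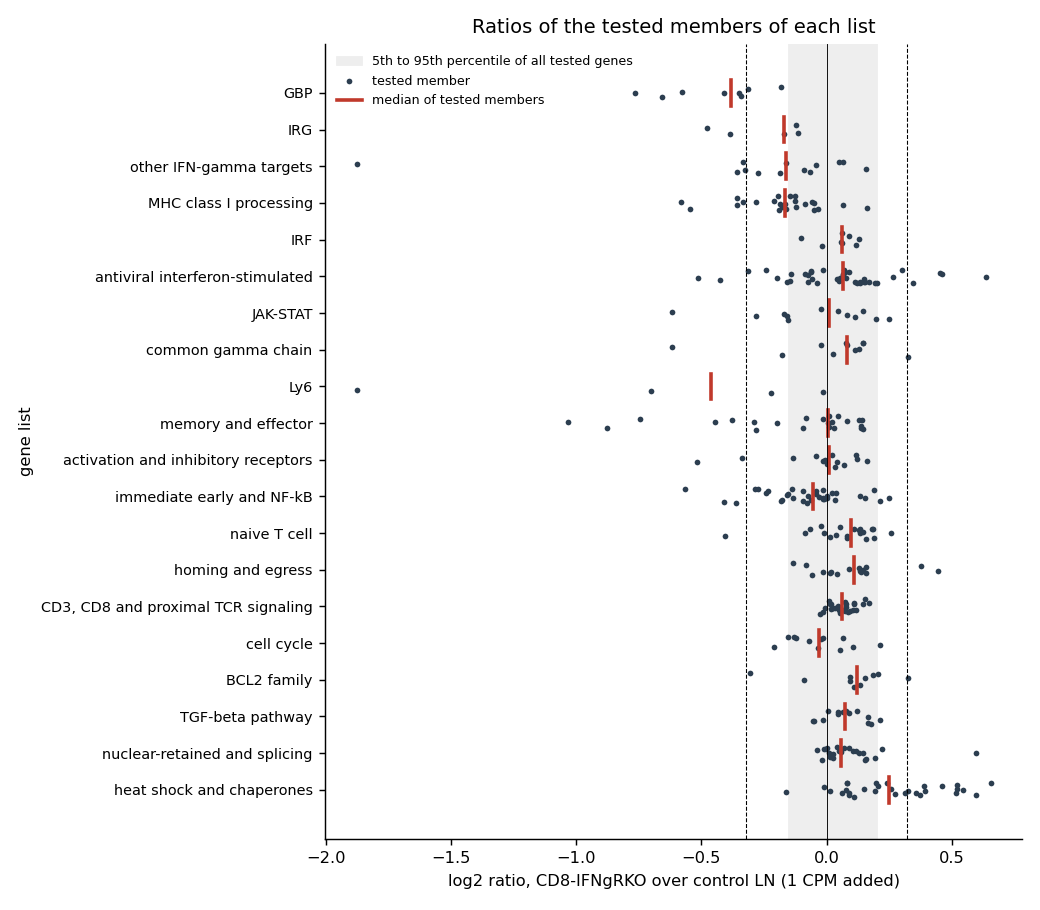
Log2 ratio of CD8-IFNγRKO over control LN (x axis, 1 CPM added) of each tested member of 20 gene lists (y axis), with the list median in red. The grey band holds the 5th to 95th percentile of all tested genes and dashed lines mark the limit of 0.32 in each direction. Medians of the GBP (-0.38), Ly6 (-0.46), IRG (-0.17), other IFNγ target (-0.16) and class I (-0.16) lists lie below the band. The heat shock median (0.25) lies above it, and that of the antiviral list (0.07) inside it.

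Among cytokine signaling genes, *Jak3*, the kinase of the common γ chain, was lower at 57.9 CPM (55.2 to 60.7) against 89.4 CPM (86.0 to 92.8), a log2 ratio of -0.62 (-0.71 to -0.53). Of the 12 tested genes of the JAK-STAT list it was the 1 past the limit, beside 0.929% of all tested genes lower. *Bcl2*, which protects naive and memory cells from apoptosis, was higher at 142 against 113 CPM (0.33), at the edge of the limit. It was the 1 of 10 tested BCL2 family genes that was higher, beside 0.984% of all tested genes. *Il7r* stood at 389 against 351 CPM (0.14).

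Memory and effector genes split. Of 23 tested, 5 were lower and none higher, with a median of 0.01, beside 0.929% lower and a median of 0.03 over all tested genes. They were the calcium-binding proteins *S100a4*, at 6.53 against 14.4 CPM (-1.03, -1.26 to -0.81), and *S100a6*, at 23.4 against 44.0 CPM (-0.88, -1.01 to -0.75), the chemokines *Ccl4*, at 17.2 against 29.5 CPM (-0.75), and *Xcl1*, at 16.9 against 22.2 CPM (-0.38), and the adhesion receptor *Cd44*, at 14.7 against 20.4 CPM (-0.44). Without the filter on the 3 markers the log2 ratio of Xcl1 was 0.000737, so that *Xcl1* was no longer lower. Among 14 tested activation and inhibitory receptors, *Izumo1r* (-0.52) and *Ctla4* (-0.34) were lower and none higher, beside 0.929% of all tested genes lower. Of 36 tested immediate early and NF-κB genes, *Gadd45b* (-0.56), *Fosb* (-0.41) and *Nfkbia* (-0.36) were lower and none was higher, beside 0.929% of all tested genes lower. Of these 36, 26 were below 0, beside 38.6% of all tested genes, and the median was -0.05. *Bcl3*, an NF-κB cofactor, at 14.8 against 29.5 CPM (-0.95), and *Clic4*, a chloride channel protein, at 12.6 against 23.1 CPM (-0.83), were picked after their values were seen. In an amino acid and tRNA synthetase list, drawn up after such genes were seen, 4 of 21 tested genes were lower and 19 below 0. Among all tested genes 0.929% were lower and 38.6% below 0. Since the list was drawn up from these same data, an excess over these shares was built in. The 4 were *Mthfd2* (-0.60), *Cars* (-0.58), *Slc7a5* (-0.53) and *Aars* (-0.35), of folate metabolism, aminoacyl-tRNA synthesis and amino acid transport.

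Resting-state genes were close to equal. Of 20 tested naive T cell genes, 1 was lower past the limit, beside 0.929% of all tested genes, and the median was 0.10. This gene was *Igfbp4*, at 439.9 against 583 CPM (-0.41). *Tcf7* (-0.07) and *Ccr7* (0.13) were within the limit. *Ccr9*, a gut-homing receptor, at 107 against 78.6 CPM (0.45), and *Cxcr4*, at 42.4 against 32.4 CPM (0.38), were the 2 of 16 tested homing genes that were higher. Among all tested genes 0.984% were higher. None of the 28 tested genes of CD3, CD8 and proximal T cell receptor signaling, 12 of the cell cycle, 14 of the TGF-β pathway or 85 ribosomal proteins was past the limit in either direction. Among all tested genes 0.929% were lower and 0.984% higher. Below 0 were 3, 8, 3 and 76 of these, in that order, beside 38.6% of all tested genes. Every cell taken held a UMI of *Cd8a*, *Cd8b1* and *Cd2*, so the ratios of these genes are partly set by that filter. In cells with at least 2 *Ccl5* UMIs, 12 of 12 cell cycle genes were below 0, with a median of -0.45. Of all 7320 tested genes 4028 were below 0 there, with a median of -0.03. The aspartic protease gene *Ctse* was lower at 51.7 against 69.2 CPM (-0.41).

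Heat shock and chaperone genes were higher. Of 30 tested, 12 were higher past the limit and none lower, beside 0.984% of all tested genes, and the median was 0.25. The inducible HSP70 gene *Hspa1b* stood at 507 CPM (499 to 515) against 321 CPM (315 to 328), a log2 ratio of 0.66 (0.62 to 0.69), its near-identical copy *Hspa1a* at 203 against 139 CPM (0.55) and the HSP110 gene *Hsph1* at 191 against 126 CPM (0.60). The co-chaperones *Dnajb1* (0.52), *Dnaja1* (0.52), *Stip1* (0.46), *Cacybp* (0.39), *Chordc1* (0.37) and *Ahsa1* (0.36), the HSP90 genes *Hsp90aa1* (0.52) and *Hsp90ab1* (0.32) and the mitochondrial chaperonin *Hspd1* (0.39) made up the rest. Outside this list, the splicing-related gene *Rsrp1* was higher at 236 against 156 CPM (0.60). It was the 1 of 23 tested nuclear-retained and splicing genes that was higher, beside 0.984% of all tested genes. *Tent5a*, a poly(A) polymerase, was higher at 59.1 against 43.6 CPM (0.43). Higher still, and picked after their values were seen, were the predicted genes *Gm21887*, at 64.7 against 17.9 CPM (1.80), and *Gm47283*, at 32.0 against 10.9 CPM (1.47). Other genes that passed the limit under the listing rule were *mt-Nd3* (0.33), 1 of 13 mitochondrial genes, and *Ddx3y* (0.33), 1 of 4 sex-linked genes. Both counts stand beside 0.984% of all tested genes higher.

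Composition was compared next. *Ccl5*-negative cells made up 94.3% (93.7 to 94.8) of thinned CD8-IFNγRKO cells and 93.4% (92.7 to 94.0) of control cells. *Ccl5*-positive cells made up 3.60% (3.17 to 4.08) and 4.08% (3.61 to 4.59). The Clopper-Pearson 95% intervals overlap for both classes, but cover counting error only, since cells of 1 library are not replicates. Overlap does not show that the shares are equal. Cells with at least 5 UMIs summed over 10 interferon-stimulated markers, called interferon-high, made up 2.32% (1.98 to 2.71) and 1.76% (1.45 to 2.11), again overlapping, and interferon-low cells with at most 1 such UMI 87.8% and 88.5%.

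*Ly6a* was lower in all 4 classes. It stood lower in *Ccl5*-negative cells, 18.9 against 71.3 CPM (-1.86, -2.0 to -1.72), and in *Ccl5*-positive cells, 23.1 against 135 CPM (-2.50, -3.06 to -1.97). In interferon-low cells it stood at 15.6 against 67.6 CPM (-2.05, -2.20 to -1.90) and in interferon-high cells at 86.2 against 290.2 CPM (-1.74, -2.21 to -1.29). The level was thus higher in interferon-high than in interferon-low cells of either genotype, and the intervals of the 2 ratios overlap. The B-like barcodes gave 16 against 32 *Ly6a* UMIs, a log2 ratio of -1.22 (-2.18 to -0.31) in a class where Cre should not act, and the source of these UMIs was not tested.

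*Gbp2* gave -0.73 (-0.84 to -0.63) in interferon-low and -1.09 (-1.52 to -0.67) in interferon-high cells. In *Ccl5*-positive cells, 56 and 82 *Gbp2* UMIs gave a ratio that could not be told from 0 at this depth (-0.27, -0.78 to 0.23). *H2-Q7* lay between -0.62 and -0.46 in all 4 classes and *Psmb9* between -0.53 and -0.35. *Jak3* gave -0.60 in *Ccl5*-negative and -1.10 in *Ccl5*-positive cells, with intervals that overlap. Over the 8 tested GBPs the median was -0.38 in *Ccl5*-negative, -0.34 in *Ccl5*-positive and -0.39 in interferon-low cells, where all tested genes had medians of 0.03, -0.03 and 0.03. The antiviral list had a median of 0.07 in *Ccl5*-negative and -0.11 in *Ccl5*-positive cells. In the latter 25 of its 41 tested genes were below 0, beside 4028 of all 7320. In cells with Y-linked UMIs alone 21 of the 41 were below 0, beside 2820 of 7320, with a median of -0.03. In cells with neither Xist nor Y-linked UMIs 11 of the 41 were below 0, beside 3006 of 7320, with a median of 0.10. *Ifi27l2a* gave 0.38 in *Ccl5*-negative and -0.37 (-0.54 to -0.20) in *Ccl5*-positive cells.

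The pooled ratio of *S100a4* was lower in *Ccl5*-positive than in *Ccl5*-negative cells. In the former *S100a4* stood at 17.9 against 107 CPM (-2.52, -3.16 to -1.92), from 24 and 174 UMIs. In the latter it stood at 4.75 against 7.02 CPM (-0.48, -0.76 to -0.20). The intervals do not overlap, but cover counting error only, since cells of 1 library are not replicates. How many cells held these UMIs was not counted. *S100a6* gave -1.18 (-1.41 to -0.95) and -0.54 (-0.72 to -0.35), and *Ccl4* -0.95 (-1.20 to -0.70) and -0.24 (-0.45 to -0.02). *Xcl1* gave 2 UMIs in the 156 interferon-high CD8-IFNγRKO cells against 153 in the 113 interferon-high control cells. How many of these cells held an *Xcl1* UMI was not counted, so a few cells may hold most of them. In interferon-low cells 403 against 461 UMIs of *Xcl1* gave -0.13 (-0.32 to 0.05). In the cells between these classes 83 against 51 UMIs gave 0.68 (0.19 to 1.19). With *Ccl5*-negative cells alone, 2 memory and effector genes in place of 5 were lower past the limit, beside 58 of 7313 tested genes. There *Ccl4* and *Xcl1* (-0.25) lay within the limit, while *S100a4* was under the minimum level and so not counted. *Hspa1b* was higher in all 4 classes, by 0.22 (0.04 to 0.40) in *Ccl5*-positive cells and by 1.53 (1.23 to 1.85) in interferon-high cells.

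**Figure D4:**
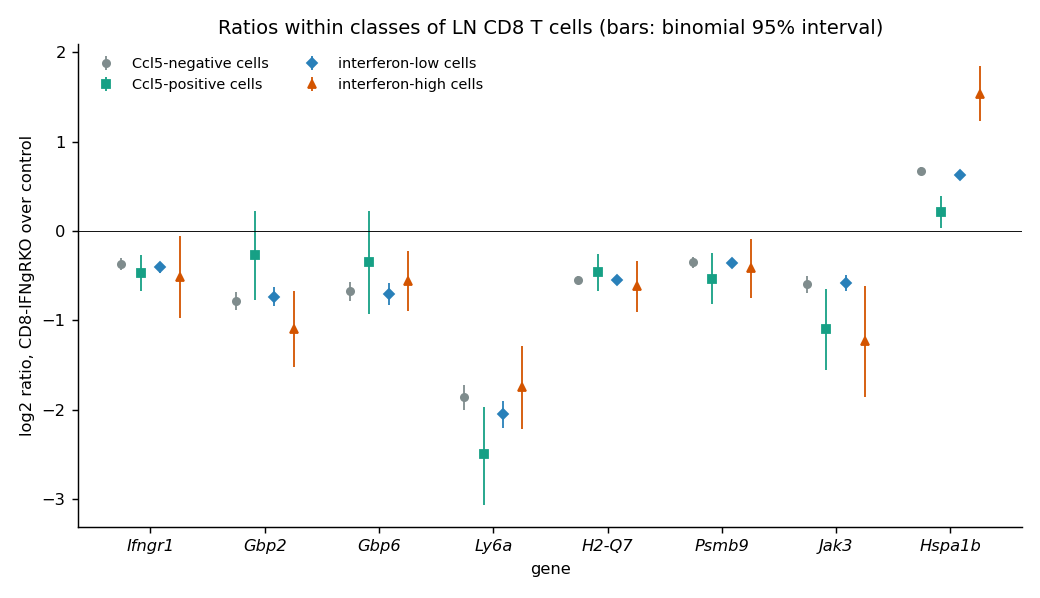
Log2 ratio of CD8-IFNγRKO over control LN (y axis) of 8 genes (x axis) within *Ccl5*-negative, *Ccl5*-positive, interferon-low and interferon-high cells. Bars are conditional binomial 95% intervals, counting error only. *Ly6a* lies between -2.50 and -1.74 in the 4 classes, and the bars of *Gbp2* and *Gbp6* reach above 0 in *Ccl5*-positive cells alone.

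The tumor libraries of the same genotypes gave a wider spread, with 810 of 7460 tested genes lower (10.9%) and 1153 higher (15.5%), shares to read the counts below against. They also differed in make-up and depth. *Ccl5*-positive cells made up 60.2% of thinned CD8-IFNγRKO tumor cells and 89.1% of control tumor cells, with a median of 9399.5 and 6306 UMIs per cell taken. Tumor ratios cannot be told apart from these differences. *Ly6a* stood at 2089.6 against 1906 CPM in the tumor (0.13), far above both LN levels and with no lower value in CD8-IFNγRKO cells. Of the 9 GBPs tested there 4 were lower, and the median was -0.14. *Gbp2* gave -0.35, *Gbp6* -0.45 and *Gbp3* 0.02. Of 23 class I genes 2 were lower and 2 higher, with a median of -0.05. *H2-Q6* and *H2-Q7* were the exception, at -0.58 and -0.62, close to their LN ratios, while *Psmb9* stood at 0.17 and *Tap1* at -0.05. *Irf1*, near equal in the LN, gave -0.74 in the tumor. *Zbp1* (0.20), *Isg20* (0.09) and *Apobec3* (0.22), lower in the LN, were above 0 in the tumor. Heat shock genes were higher in 17 of 32 tested, with a median of 0.45, of which *Hspa1a* gave 1.89 and *Hspa1b* 1.66, while *Dnaja1* gave -0.07. The 4 amino acid and tRNA synthetase genes named above, from the list drawn up after such genes were seen, lay between 0.47 and 0.84 in the tumor. The difference between tissues was not tested, since each ratio rests on 1 library a side.

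**Figure D5:**
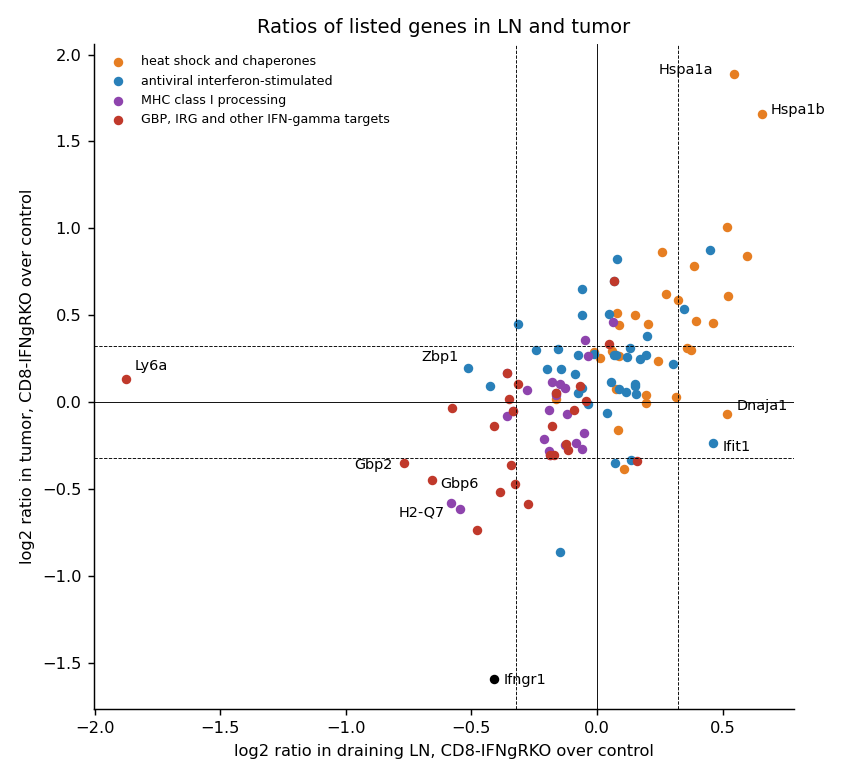
Log2 ratio of CD8-IFNγRKO over control in the tumor (y axis) against the LN (x axis) for listed genes tested in both tissues. Dashed lines mark the limit of 0.32 in each direction. *Ly6a* lies at -1.88 in the LN and 0.13 in the tumor, *Ifngr1* at -0.41 and -1.59, and *Hspa1b* at 0.66 and 1.66.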

How the data were processed

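Single-cell RNA from sorted CD8 T cells was sequenced with a 5' kit. The files the authors deposited hold raw UMI counts for each gene and barcode, mapped with Cell Ranger to mm10 per the submitters' processing notes. 2 T cell receptor tables were not used. Counts were summed over the cells taken and divided by all UMIs of the library (CPM) in Python 3.11.15, with pandas 2.3.3 and scipy 1.17.1. Doublets were kept and no caller was run. Precision follows the UMIs, 28960267 and 30029269 in all. No replicate test was possible with 1 library a side. The calculation of ratios was checked on simulated Poisson counts with known ratios. These hold counting error only, so the check does not cover spread between cells or mice.

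Genes printed were the 15 highest and 15 lowest ratios at a mean of at least 50 CPM, and the genes of the 4 IFNγ lists. Left out of these lists were the IRGs *Gm4951*, *F830016B08Rik* and *Gm5431*, under the minimum level. Up to 6 members past the limit of each other list were printed too. From the 10 neighbours of *Ifngr1* on each side, *Map3k5* and *Tnfaip3* are given. The rest serve as checks of identity or are named as picked after their values were seen, beside a few members of each list given for its span. The members and lists were chosen with earlier results of these data known. Cell classes came from counts thinned to 1600 UMIs, and their levels from all UMIs. 2 genes are not reported here and were taken out of the lists and counts by list. 13 planned and 2 added alternatives were run.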

Additional observations from a re-analysis of the deposited data

Results flagged for a closer look

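*Tent5a* was higher in CD8-IFNγRKO LN cells (log2 ratio 0.43) and lower in the tumor (-0.75). *Xcl1* was lower in the LN (-0.38) and higher in the tumor (1.63). Of its LN UMIs, 2 in CD8-IFNγRKO and 153 in control cells came from interferon-high cells. How many cells held these UMIs was not counted. In interferon-low cells the ratio of *Xcl1* was -0.13 (-0.32 to 0.05). Without the filter on *Cd2*, *Cd8a* and *Cd8b1* the log2 ratio of Xcl1 was 0.000737. *Mthfd2* (-0.60), *Cars* (-0.58), *Slc7a5* (-0.53) and *Aars* (-0.35), from the list drawn up after such genes were seen, were lower in the LN and higher in the tumor (0.47, 0.48, 0.84 and 0.47). These are the tested genes named above that passed the limit in opposite directions in the 2 tissues. The difference was not tested, since each tissue gives 1 library a side. The tumor libraries also differed in their share of *Ccl5*-positive cells and in depth, as given above.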

How the results depend on the processing

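The 68 lower and 72 higher of 7320 tested genes became 23 and 20 of 2668 with a minimum of 50 CPM. They became 289 and 263 of 10649 with a minimum of 1 CPM, and 107 and 173 of 7329 in cells thinned to 1600 UMIs. The higher count was 39 with 5 CPM added, 45 with ratios centred on their median and 123 in Y-positive cells. The share of lower among all genes past the limit moved from 48.6% to 64.8% with the centring and to 38.2% with the thinning. With a minimum of 1 CPM, 4 IRGs, 7 other IFNγ targets and 9 memory and effector genes were lower, beside 289 of 10649 tested genes. With 50 CPM 0 memory and effector genes were lower and 2 antiviral genes higher, since fewer genes were tested. Of all 2668 genes tested there, 23 were lower and 20 higher. Thinning left 2 lower class I genes, with *Psmb9*, *Tap1* and *Tapbpl* no longer past the limit. Memory and effector genes lower numbered 2 in *Ccl5*-negative cells, beside 58 of 7313 tested genes lower. They numbered 2 also in *Ccl5*-negative interferon-low cells, beside 63 of 7320. In both classes *Ccl4* and *Xcl1* lay within the limit and *S100a4* was under the minimum level. Higher antiviral genes numbered 2 in *Ccl5*-negative interferon-low cells, beside 74 of 7320 tested genes higher. There *Ifit1*, 1 of the 10 markers whose UMIs define interferon-low cells, gave 0.18. *Oasl1* (0.49) fell under the minimum level there, at 10.6 against 7.26 CPM. Higher antiviral genes numbered 2 in Y-positive cells too, beside 123 of 7343. The cause was not tested. The log2 ratio of Xcl1 turned from -0.38 to 0.000737 without the filter on *Cd2*, *Cd8a* and *Cd8b1*. The ratio of *Ifngr1* stayed between -0.46 and -0.37 under all alternatives run. Leaving out cells with a UMI of *Cd4* or *Cd79a*, added after the data were seen, gave 70 lower and 74 higher genes, and of the genes named *Samhd1*, *Hsp90ab1* and *mt-Nd3* were no longer past the limit. Counts of lower GBPs ran from 4 to 7 and of higher heat shock genes from 11 to 13. Among all tested genes the lower ones ran from 23 of 2668 to 289 of 10649. The higher ones ran from 20 of 2668 to 263 of 10649. Cells with Xist alone were too few for a value, so that alternative was not run. No paired analysis was possible because each group holds 1 library. Depth limits genes near the minimum level. The interval of Ifng, from 299 and 360 UMIs, ran from -0.40 to 0.01.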
